A study of Mus musculus with 24 samples.

Results

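The proteasome genes of mouse lung were described here as 46 genes whose symbol is Psma, Psmb, Psmc, Psmd, Psme, Psmf or Psmg followed by a number. They were taken from 12393 genes that the array annotation names by a single symbol, and where a gene had several probe sets the brightest, by mean log2 signal over all arrays, was used. No measured difference between groups entered the choice. Of the 46 genes, 45 lay above the filter on low signals and were tested. Psma8, a testis form of an alpha subunit, had a mean log2 signal of 4.35 and was not tested. Psme2, which encodes PA28 beta, has no value of its own here, because its probe set also names Psme2b.

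Lung RNA of mice was measured on 24 Affymetrix arrays in 6 groups of 4. The 3 exposures were filtered air, diesel exhaust (DE) at 500 ug/m3 and DE at 2000 ug/m3, each given 4 h a day on 5 days. Each exposure was combined with either saline or 100 ug of ovalbumin (OVA), an egg white protein used as an allergen, on 3 days. All groups thus had an inhalation exposure and either saline or OVA, and the air saline group is the control that had neither exhaust nor allergen. Strain, age, sex and the route of OVA are not given in the labels, and the labels do not say whether the 4 arrays of a group came from separate animals. The p-values therefore measure the spread between these arrays, which may be partly technical.

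The proteasome degrades proteins that carry ubiquitin chains. Its 20S core is a barrel of alpha and beta rings, in which Psmb5, Psmb6 and Psmb7 carry the constitutive catalytic sites. Interferon gamma and leukocyte identity bring in the immunoproteasome subunits Psmb8, Psmb9 and Psmb10, which take the places of Psmb5, Psmb6 and Psmb7 and shape the peptides shown on major histocompatibility complex class I. A 19S particle of base (ATPases and ubiquitin receptors) and lid (which holds the deubiquitinase Psmd14) opens the core and feeds it, and PA28, PA28 gamma and PA200 are alternative activators. In lung these subunits are made by epithelium, endothelium and leukocytes alike.

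All values below are log2 of the deposited signal, and differences are differences of group means on that scale with their standard error (SE). A member was called when limma's adjusted p, taken over all 13575 probe sets tested in the comparison, was below 0.05. Signals of different genes were not set against each other, since each probe set has its own binding strength. In whole lung, fewer cells of a type and less RNA per cell cannot be told apart.

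RNA evenness differed between the saline and OVA arms. The array carries control probe sets at the 3' and 5' ends of Gapdh and actin, and their ratio rises when the 5' part of transcripts is under-represented. The Gapdh ratio was 2.05 ± 1.47 (SD, n = 12, log2) in saline and -0.03 ± 0.69 (SD, n = 12) in OVA, and the actin ratio was 1.63 ± 1.13 and 0.44 ± 0.49. Exact permutation of arrays within exposures gave two-sided p = 5.25e-05 and p = 0.00211. The B1 repeat control was 12.98 ± 0.53 in saline and 11.55 ± 0.46 in OVA (SD, n = 12; p = 5.83e-06, the smallest this permutation can give). Within groups, arrays 1 and 4 of DE 500 saline had mean 3'/5' ratios of 4.38 and 3.77 against 0.33 and 0.10 on arrays 2 and 3, and array 4 of DE 2000 OVA stood at 2.02 against -0.13 to 0.09 on the others. The labelled tissue carried its defining markers, with mean log2 signals of 14.82 for Sftpc (alveolar type 2), 13.51 for Ager (alveolar type 1) and 14.57 for Scgb1a1 (club cells).

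Across the tested members the mean log2 signal ran from 7.71 (Psmd10) to 12.003 (Psmd11). The tested members comprised 7 alpha subunits, 7 constitutive beta subunits, 3 immunoproteasome beta subunits, 6 base ATPases, 3 base non-ATPase subunits, 8 lid subunits, 3 base assembly chaperones, 4 core assembly chaperones, 3 activators and 1 inhibitor. Their median spread between arrays of a group was 0.23 (pooled SD). The mean over the tested members was 10.13 ± 0.05 (SD, n = 4) in air saline and 10.06 ± 0.10 in air OVA. It was 10.05 ± 0.07 in DE 500 saline and 10.01 ± 0.12 in DE 500 OVA, and 10.17 ± 0.04 and 10.14 ± 0.09 in the DE 2000 groups.

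**Figure D1:**
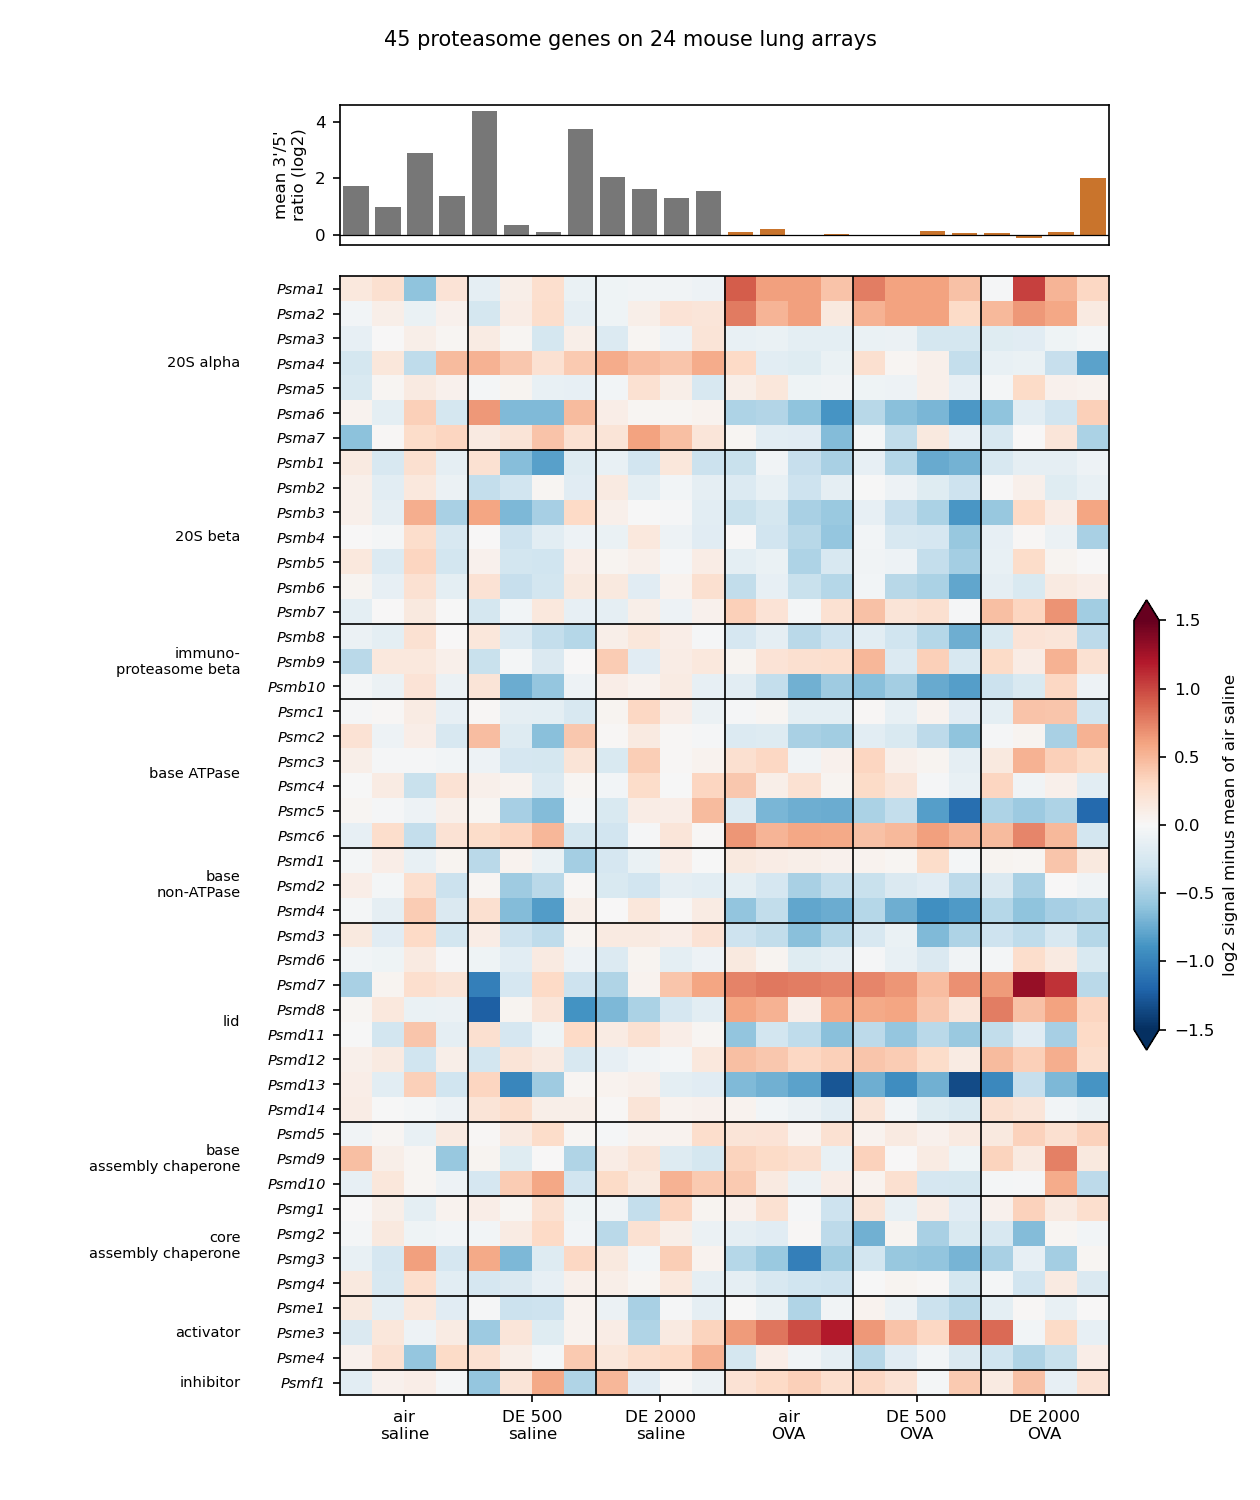
Log2 signal of each tested proteasome gene (rows, by class) on each array (columns, arrays 1 to 4 of each group from left to right) minus the mean of the 4 air saline arrays; bars above give each array's mean log2 3'/5' ratio of Gapdh and actin, grey for saline and orange for OVA. Within DE 500 saline, arrays 2 and 3, whose ratios are 0.33 and 0.10, have other colours than arrays 1 and 4 in rows such as Psmd4, Psmd8 and Psmd13.

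Diesel exhaust moved no proteasome gene past the threshold. In saline mice, 0 of 45 members were called at DE 500 (background 0.00737% of probe sets) and 0 at DE 2000 (background 0.147%). In OVA mice, 0 of 45 were called at DE 500 (background 0%) and 0 at DE 2000 (background 0.0221%). Averaged over both arms, 0 were called at DE 2000 (background 0.0884%). At an unadjusted p below 0.05, limma counted 2, 1, 0, 2 and 0 members in these comparisons, against 7.9%, 5.94%, 0.921%, 8.13% and 7.52% of all probe sets. Each pair of doses shares its air controls. With the B1 control signal in the model, 5 members were called at DE 2000 in OVA mice, Psma6 (0.63), Psmb3 (0.70), Psmc2 (0.52) and Psmd11 (0.41) higher and Psme3 (-0.74) lower, where that model called 7.17% of all probe sets.

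In saline mice the median difference over the members was -0.07 at DE 500, with 13 of 45 above 0, and 0.04 at DE 2000, with 27 of 45 above 0. The medians over all tested probe sets were -0.01 and -0.01. In OVA mice the medians were -0.05 at DE 500 (12 of 45 above 0) and 0.10 at DE 2000 (33 of 45 above 0), beside -0.00 and -0.04 over all probe sets. At DE 2000 in OVA mice all 7 constitutive beta subunits, the 3 immunoproteasome subunits, the 3 base non-ATPase subunits and 7 of 8 lid subunits lay above 0, where 43.8% of all probe sets did. The alpha ring, the base ATPases and the core assembly chaperones had members on both sides of 0. Psma1, Psmc6 and Psmg2 were among those below it. In the same comparison 5 of 5 alveolar type 2 markers (median 0.21) and 3 of 3 club cell markers (median 0.25) lay above 0, with 0 called (limma, 2 and 1 at an unadjusted p below 0.05). The other marker lists were mixed. Above 0 lay 3 of 4 alveolar type 1 markers (median 0.19), 2 of 5 leukocyte (-0.01), 2 of 4 neutrophil (0.02) and 1 of 4 endothelial markers (-0.09). Of the T cell, B cell and macrophage markers 2 of 3, 2 of 3 and 1 of 2 did (medians 0.07, 0.02 and 0.08). Array 4 of DE 2000 OVA, which stood apart in its 3'/5' ratio, was the highest of its group for Psmb3 (11.21), Psma6 (12.08) and Psmc2 (12.03), and without the 3 arrays that stood apart in that ratio the median over the members was 0.13. The part of cell content and RNA evenness in this shift was not tested. Scaling arrays to a common median moved that comparison's median to 0.21 over the members and to 0.07 over all probe sets. Across both arms, 18 members lay above 0 at DE 2000 in each, 3 lay below 0 in each, and 24 had opposite signs.

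The members with the smallest p at DE 2000 were Psma4 in saline mice and Psme3 in OVA mice. Psma4, an alpha ring subunit, read 10.65, 11.09, 10.54 and 11.39 on the air saline arrays, 11.44, 11.32, 11.15 and 11.31 at DE 500 and 11.47, 11.38, 11.34 and 11.47 at DE 2000. In OVA mice it read 11.21, 10.76, 10.74 and 10.82 in air, 11.15, 10.95, 10.99 and 10.56 at DE 500 and 10.80, 10.82, 10.58 and 10.12 at DE 2000. Without OVA, 3 of the 4 air arrays were below all DE 2000 arrays and 1 was among them, and the groups overlapped. The saline difference was 0.50 ± 0.18 at DE 2000 (unadjusted p = 0.0096, adjusted p = 0.485) and 0.39 ± 0.18 at DE 500 (adjusted p = 0.584). In OVA mice the difference at DE 2000 was -0.31 ± 0.18 (adjusted p = 0.663). The test of the difference between the arms, the interaction of DE 2000 and OVA, gave -0.80 ± 0.25 (unadjusted p = 0.00368, adjusted p = 0.483).

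Psme3 encodes PA28 gamma, an activator found mainly in nuclei. It read 7.54, 7.93, 7.68 and 7.89 in air saline and 7.87, 7.31, 7.89 and 8.09 in DE 2000 saline. With OVA it read 8.39, 8.56, 8.74 and 8.95 in air, 8.41, 8.18, 8.08 and 8.56 at DE 500 and 8.61, 7.72, 8.05 and 7.63 at DE 2000. In OVA mice 3 of the 4 DE 2000 arrays lay below every air array, and array 1 lay among them. That difference was -0.66 ± 0.21 (unadjusted p = 0.00542, adjusted p = 0.517). Psmd8, a lid subunit, was the 1 member whose DE 2000 saline arrays all lay below the air saline arrays (9.07, 9.27, 9.49 and 9.59 against 9.77, 9.90, 9.64 and 9.66; -0.39 ± 0.22, adjusted p = 0.957). Groups did not overlap for 4.32% of all probe sets in that comparison. At DE 500 in saline mice no member's groups were apart (3.45% of all probe sets), at DE 500 in OVA mice 1 was (Psmd7, lower; 1.5% of all probe sets), and at DE 2000 in OVA mice none was (4.35%).

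No interaction between exhaust and OVA was called for a member. The count was 0 of 45 at DE 500 and 0 of 45 at DE 2000, where the background was 0% in both. At an unadjusted p below 0.05, limma counted 0 and 2 members, Psma4 and Psme3 (-0.69 ± 0.30, adjusted p = 0.792), against 3.09% and 6.11% of all probe sets.

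The remaining members nearest to a call are given by comparison, as limma log2 differences. At DE 500 in saline mice the 5 members with the smallest p were Psma4 (0.39), Psmd8 (-0.47), Psmd1 (-0.24), Psmb1 (-0.35) and Psmb2 (-0.20), with adjusted p from 0.584 to 0.723. At DE 2000 in saline mice the 5 members with the smallest p were Psma4 (0.50), Psma7 (0.36), Psme4 (0.31), Psmd8 (-0.39) and Psmd10 (0.34), with adjusted p from 0.485 to 0.986. These comparisons share the air saline arrays. At DE 500 in OVA mice the 5 members with the smallest p were Psme3 (-0.35), Psmg4 (0.19), Psmb10 (-0.23), Psmb1 (-0.20) and Psmg2 (-0.18), with adjusted p of 1. At DE 2000 in OVA mice the 5 members with the smallest p were Psme3 (-0.66), Psmb10 (0.36), Psmb3 (0.52), Psmb5 (0.29) and Psmb6 (0.28), with adjusted p from 0.517 to 0.647. These share the air OVA arrays. For DE 2000 averaged over the arms the 5 members with the smallest p were Psme3 (-0.31), Psmd11 (0.20), Psma7 (0.23), Psmb5 (0.17) and Psmb10 (0.20), with adjusted p from 0.665 to 0.723. For the interaction of DE 500 and OVA the 5 members with the smallest p were Psmg4 (0.32), Psmb2 (0.24), Psmd8 (0.46), Psma4 (-0.36) and Psmd5 (-0.19), with adjusted p of 1. For the interaction of DE 2000 and OVA the 5 members with the smallest p were Psma4 (-0.80), Psme3 (-0.69), Psme4 (-0.47), Psmd2 (0.32) and Psmd10 (-0.45), with adjusted p from 0.483 to 0.917.

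**Figure D2:**
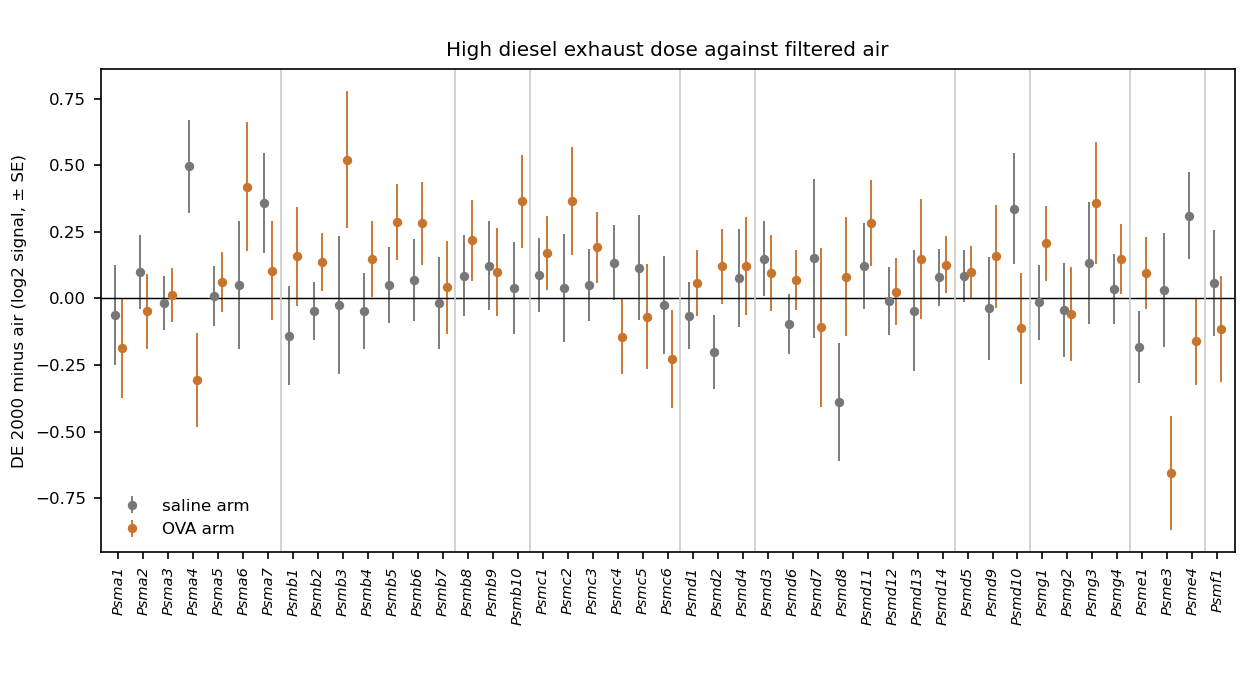
Difference between DE 2000 and filtered air (log2 signal, points, with SE bars) for the 45 tested members in class order, in saline mice (grey) and OVA mice (orange), 4 arrays a group. No point passed the test, and the points with the smallest p are Psme3 in OVA mice at -0.66 and Psma4 in saline mice at 0.50.

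The catalytic subunits were followed on every array. Psmb8, which replaces Psmb5, read 10.19, 10.13, 10.50 and 10.29 in air saline, 10.45, 10.07, 9.92 and 9.85 in DE 500 saline and 10.37, 10.45, 10.37 and 10.26 in DE 2000 saline. With OVA it read 10.02, 10.14, 9.87 and 9.96 in air, 10.12, 9.98, 9.85 and 9.54 at DE 500 and 10.04, 10.48, 10.45 and 9.89 at DE 2000. Saline and OVA arrays overlapped at each exposure, in air through a single OVA array. Over the 3 exposures the OVA difference was -0.21 ± 0.09 (adjusted p = 0.0561).

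Psmb9 replaces Psmb6. Its saline arrays read 9.22, 9.79, 9.79 and 9.71 in air, 9.30, 9.60, 9.41 and 9.63 at DE 500 and 10.01, 9.45, 9.74 and 9.79 at DE 2000. Its OVA arrays read 9.67, 9.84, 9.87 and 9.87 in air, 10.12, 9.43, 9.98 and 9.39 at DE 500 and 9.91, 9.74, 10.15 and 9.85 at DE 2000. Saline and OVA overlapped in each exposure, and the averaged OVA difference was 0.20 ± 0.10 (adjusted p = 0.0971).

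Psmb10, which replaces Psmb7, was the immunoproteasome subunit that passed the averaged test. It read 10.60, 10.54, 10.84 and 10.54 in air saline, 10.82, 9.88, 10.05 and 10.56 in DE 500 saline and 10.73, 10.69, 10.76 and 10.50 in DE 2000 saline. Its OVA values were 10.47, 10.27, 9.91 and 10.09 in air, 10.002, 10.12, 9.87 and 9.81 at DE 500 and 10.31, 10.40, 10.94 and 10.55 at DE 2000. In air every OVA array lay below every saline array, whereas the groups overlapped at both DE doses. It fell by 0.31 ± 0.10 (SE) with OVA (adjusted p = 0.0135), and with the 3'/5' ratio in the model the difference was -0.05 ± 0.10 (adjusted p = 0.792). In DE 500 saline, arrays 2 and 3, which had low 3'/5' ratios, read 9.88 and 10.05, inside or near the OVA range of 9.81 to 10.12, while arrays 1 and 4 read 10.82 and 10.56.

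Of the constitutive counterparts, Psmb6 was called and Psmb5 and Psmb7 were not. Psmb5 read 11.09, 10.72, 11.26 and 10.65 in air saline, 10.999, 10.66, 10.63 and 11.03 in DE 500 saline and 10.97, 11.01, 10.91 and 11.04 in DE 2000 saline. With OVA it read 10.79, 10.83, 10.46 and 10.69 in air, 10.88, 10.85, 10.58 and 10.43 at DE 500 and 10.82, 11.20, 10.97 and 10.93 at DE 2000, and saline and OVA overlapped at each exposure. Its averaged OVA difference was -0.13 ± 0.08 (adjusted p = 0.213).

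Psmb6 read 10.83, 10.66, 11.01 and 10.64 in air saline, 10.999, 10.44, 10.52 and 10.93 in DE 500 saline and 10.94, 10.61, 10.85 and 11.03 in DE 2000 saline. With OVA it read 10.42, 10.66, 10.45 and 10.36 in air, 10.75, 10.37, 10.32 and 10.003 at DE 500 and 10.65, 10.56, 10.93 and 10.89 at DE 2000. It fell by 0.26 ± 0.09 with OVA (adjusted p = 0.0211), although the groups overlapped at each exposure, and with the 3'/5' ratio in the model the difference was -0.05 ± 0.10 (adjusted p = 0.794).

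Psmb7 did not pass. Its saline arrays read 11.62, 11.78, 11.91 and 11.76 in air, 11.51, 11.72, 11.93 and 11.65 at DE 500 and 11.63, 11.85, 11.69 and 11.83 at DE 2000. Its OVA arrays read 12.13, 11.97, 11.74 and 11.99 in air, 12.21, 11.96, 12.01 and 11.75 at DE 500 and 12.22, 12.09, 12.44 and 11.25 at DE 2000. Saline and OVA overlapped at each exposure, and array 4 of DE 2000 OVA, the one with a high 3'/5' ratio, was the lowest of all 24. The averaged difference was 0.24 ± 0.10 (adjusted p = 0.0525), and without the 3 arrays that stood apart in 3'/5' ratio it was called at 0.28 (adjusted p = 0.00293).

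**Figure D3:**
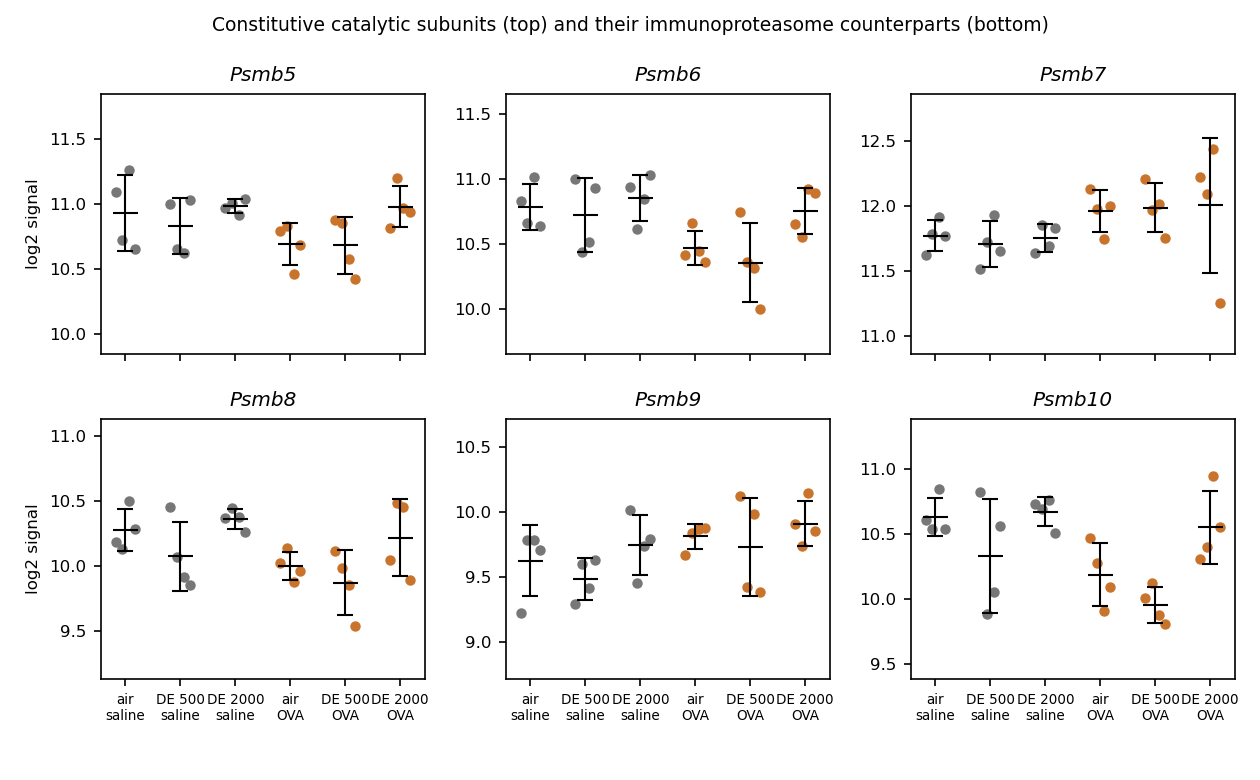
Log2 signal of the 3 constitutive catalytic subunits (top) and of the immunoproteasome subunits that replace them (bottom) in the 6 groups; points are arrays (grey saline, orange OVA), and black bars give the mean and SD of 4 arrays. Each panel spans the same height on the log2 scale, and the lowest Psmb7 point, 11.25, is array 4 of DE 2000 OVA.

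Whether partners changed unequally was tested on the difference between them within each array, which does not change when an array is multiplied by a constant. With OVA, Psmb9 gained on Psmb6 by 0.46 (exact permutation within exposures, two-sided, p = 7e-05, adjusted over 6 tests p = 0.00042). Psmb10 lost ground to Psmb7 by a shift of -0.55 (exact p = 0.000612, adjusted p = 0.00184). Psmb8 against Psmb5 shifted by -0.08 (exact p = 0.288, adjusted p = 0.431). The within-group SDs of these differences were 0.25, 0.34 and 0.19. The shifts that passed had opposite signs. Once each array's 3'/5' ratio was in the model the shifts were 0.23 ± 0.11, -0.11 ± 0.10 and -0.20 ± 0.10 (SE), in the order just given for the first 2 pairs and Psmb8 last, with no test. RNA evenness and OVA cannot be told apart in air, where the ranges of the ratio do not overlap.

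The same pairs under exhaust gave no call. From air to DE 2000 the shifts were -0.07 for Psmb9 against Psmb6, 0.19 for Psmb10 against Psmb7 and -0.02 for Psmb8 against Psmb5. The exact permutation p-values, adjusted over the same 6 tests, were 0.659, 0.425 and 0.847. Psme1, the PA28 alpha activator that interferon gamma raises together with the immunoproteasome, had averaged differences of -0.02 ± 0.08 for OVA and -0.04 ± 0.10 for DE 2000 (adjusted p = 0.82 and 0.929). Its 24 arrays ran from 10.96 to 11.61, with saline minimum, median and maximum of 10.96, 11.34 and 11.61 and OVA values of 10.997, 11.36 and 11.51.

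Leukocyte content is given beside these subunits because leukocytes express them strongly. Of the 5 leukocyte markers, all tested, 1 was called higher (Cd53) and 1 lower (Laptm5) with OVA in the average, and their median difference was -0.00. That comparison called 46.3% of all probe sets. Of the 3 B cell markers tested 0 were called in it, all 3 lay below 0 and the median was -0.37 (limma, 1 at an unadjusted p below 0.05). Of the 3 T cell markers tested 0 were called, with 1 above 0, 2 below 0 and a median of -0.05. Of the 2 macrophage markers tested, Cd68 was called higher in the average (0.66), at DE 500 and at DE 2000. These comparisons called 46.3%, 12.5% and 18.1% of all probe sets. Of the 4 endothelial markers 2 were called higher in the average, Pecam1 among them (0.84), and 1 lower. Of the 4 neutrophil markers 2 were called lower for OVA at DE 2000, where their median was -0.68 and 10.4% of all probe sets were called lower. The leukocyte markers' summed signal ran from 5289 to 8249 in air OVA and from 5351 to 7695 in air saline. Under exhaust the neutrophil markers had a median difference of 0.95 at DE 2000 in saline mice, with 0 called (limma, 4 at an unadjusted p below 0.05), and their summed signal of 5060 to 11087 there lay above the air saline range of 2513 to 4025. The T cell markers Cd8a and Cd4 and the other macrophage markers, Marco and Msr1, lay below the filter. The part of cell content in the subunit values was not tested.

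Promoter sequences are shown for 3 of the catalytic subunits, because they hold core letters of elements known to act on proteasome genes. They come from RefSeq on mouse build GRCm38.p6, whose promoter table matched 38 of the 46 members. The capitals mark TGACNNNGC, the core of the antioxidant element read by the NRF factors, 47 bases before the start of Psmb5 (chr14:54618014-54618062, minus strand) and 9 bases before that of Psmb6 (chr11:70525328-70525356, plus strand). In Psmb8 (chr17:34198078-34198126, plus strand) they mark TTCNNNGAA, the core of the interferon gamma activated site, 97 bases before the start.
Psmb5: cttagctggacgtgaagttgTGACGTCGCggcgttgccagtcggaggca
Psmb6: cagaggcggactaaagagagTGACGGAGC
Psmb8: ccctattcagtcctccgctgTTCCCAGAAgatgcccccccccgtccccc
Both motifs were searched on both strands of the 250 bases before the gene start, and the second reads the same on either strand. TGACNNNGC was found in 5 of 38 members (13.2%) and in 11.5% of all 27025 genes of the table, and TTCNNNGAA in 2 of 38 (5.26%) and in 8.13%. A match is a description of letters, not of binding.

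OVA against saline called proteasome genes in both directions. In filtered air 9 of 45 members were called, 5 higher and 4 lower, beside 14.8% of all probe sets (7.62% higher and 7.14% lower). At DE 500 it was 6 of 45, 5 higher and 1 lower, beside 12.5% (5.83% higher and 6.64% lower). At DE 2000 it was 8 of 45, 2 higher and 6 lower, beside 18.1% (7.68% higher and 10.4% lower). Averaged over the 3 exposures 23 of 45 were called, 10 higher and 13 lower, beside 46.3% of all probe sets (22.7% higher and 23.6% lower). The members' shares of 20%, 13.3%, 17.8% and 51.1% are read against these backgrounds and lay near them. At an unadjusted p below 0.05 limma counted 16, 19, 11 and 28 members, which is 35.6%, 42.2%, 24.4% and 62.2% of them, beside 32.5%, 31.8%, 32% and 53% of all probe sets. Over all 12 OVA and 12 saline arrays no member's values were apart, as were those of 1.77% of all probe sets. The median averaged difference was -0.10 over the members and -0.01 over all probe sets.

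No member was called in all 3 exposures and 14 were called in at least 1, counts given here without a share of all probe sets. A single sign in all 3 exposures was seen for 34 of the 45 members. The 23 called in the average were among these, but a call on the average favours members whose 3 differences share a sign. Scaling arrays to a common median turned the averaged split to 7 higher and 16 lower, the split in air to 2 and 4 and that at DE 2000 to 3 and 3, and quantile normalization gave 3 and 5 at DE 2000. Shares of all probe sets called under these scalings are not given, so the splits do not describe the members alone. Median scaling moved the median of all probe sets in air from -0.01 to -0.13. Groups did not overlap for 14, 7 and 10 of the 45 members in air, at DE 500 and at DE 2000 (31.1%, 15.6% and 22.2%), beside 29.1%, 15.4% and 19% of all probe sets.

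In the alpha ring, Psma1 and Psma2 rose with OVA while Psma4, Psma6 and Psma7 fell. Psma1 read 9.54, 9.62, 8.78 and 9.59 in air saline and 10.29, 9.99, 9.999 and 9.81 in air OVA. At DE 500 it read 9.25, 9.47, 9.64 and 9.29 against 10.15, 9.98, 9.99 and 9.83, and at DE 2000 9.31, 9.33, 9.33 and 9.31 against 9.36, 10.41, 9.89 and 9.69. The OVA arrays lay above all saline arrays in each exposure. The averaged difference was 0.58 ± 0.11, a 1.49-fold rise (adjusted p = 0.0002).

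Psma2 had saline minimum, median and maximum of 10.87, 11.20 and 11.39 and OVA values of 11.27, 11.68 and 11.91 over 12 arrays each. It rose by 0.46 ± 0.08 (adjusted p = 0.000105), and groups did not overlap in air and at DE 500. Psma6 fell by 0.47 ± 0.14 (adjusted p = 0.00809), Psma7 by 0.36 ± 0.11 (adjusted p = 0.01) and Psma4 by 0.42 ± 0.10 (adjusted p = 0.0019). Psma4's fall was called at DE 2000 (-0.84 ± 0.18, adjusted p = 0.0024), while in air its difference was -0.03 ± 0.18 (adjusted p = 0.91). With the 3'/5' ratio in the model the brightest Psma6 probe set had 0.04 ± 0.09 (adjusted p = 0.821), and the calls of the other 4 genes held on their brightest probe sets. A less bright Psma7 probe set (mean log2 10.35) had -0.48 ± 0.09 (adjusted p = 0.000275) without and -0.25 ± 0.10 (adjusted p = 0.0907) with that ratio. Psma3 and Psma5 were not called (-0.13 and 0.04).

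Of the 7 constitutive beta subunits only Psmb6 was called in the average. The other 6 had differences between -0.22 (Psmb3) and 0.24 (Psmb7). Psmb1, Psmb2 and Psmb4, which are structural, had -0.15, -0.05 and -0.19.

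Among the 6 base ATPases, which unfold substrates, Psmc6 and Psmc3 rose and Psmc5 fell. Psmc5 read 10.60, 10.56, 10.50 and 10.65 in air saline and 10.37, 9.89, 9.84 and 9.83 in air OVA. Its DE 500 values were 10.61, 10.08, 9.92 and 10.54 against 10.10, 10.21, 9.75 and 9.45, and its DE 2000 values 10.35, 10.69, 10.67 and 11.05 against 10.11, 10.03, 10.11 and 9.40. In air and at DE 2000 every OVA array was below every saline array, and at DE 500 the saline arrays 2 and 3 lay among the OVA arrays. Psmc5 fell by 0.59 ± 0.11 on average, a 1.51-fold fall (adjusted p = 0.000253), Psmc6 rose by 0.42 ± 0.11 (adjusted p = 0.0027) and Psmc3 by 0.20 ± 0.08 (adjusted p = 0.0404). Psmc3 lost its call when any 1 of 16 of the 24 arrays was left out. In the model with the 3'/5' ratio Psmc6 was 0.14 ± 0.11 (adjusted p = 0.44) and Psmc3 0.27 ± 0.10 (adjusted p = 0.0669). Psmc1, Psmc2 and Psmc4 were not called (0.00, -0.24 and 0.07).

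The 3 non-ATPase subunits of the base split as well. Psmd4, the ubiquitin receptor also known as Rpn10, read 11.38, 11.28, 11.80 and 11.21 in air saline and 10.83, 11.05, 10.64 and 10.68 in air OVA. At DE 500 it read 11.66, 10.77, 10.58 and 11.50 in saline and 10.99, 10.68, 10.49 and 10.57 with OVA, and at DE 2000 11.43, 11.58, 11.44 and 11.54 and 10.99, 10.82, 10.92 and 10.96. The groups were apart in air and at DE 2000, and at DE 500 the saline arrays 2 and 3 lay within the OVA range. Psmd4 fell by 0.55 ± 0.11 (adjusted p = 0.00031), Psmd1, a scaffold, rose by 0.22 ± 0.07 (adjusted p = 0.0166), and Psmd2, the other scaffold, had -0.12 ± 0.08 (adjusted p = 0.248). Adjusted for the 3'/5' ratio, Psmd4 was -0.21 ± 0.09 (adjusted p = 0.136) and Psmd1 0.06 ± 0.08 (adjusted p = 0.684). A less bright Psmd4 probe set had -0.16 ± 0.16 (adjusted p = 0.446) without and -0.56 ± 0.17 (adjusted p = 0.0248) with that ratio.

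From group means alone, the 3 largest averaged differences were those of the lid subunits Psmd8, Psmd7 and Psmd13. That order did not hold once the 3'/5' ratio was in the model, where Psmc5 (-0.52 ± 0.15), Psma4 (-0.51 ± 0.13), Psma7 (-0.44 ± 0.14), Psme3 (0.43 ± 0.16) and Psmd10 (-0.42 ± 0.13) had larger ones than these. Psmd8 (Rpn12) read 9.77, 9.90, 9.64 and 9.66 in air saline and 10.33, 10.27, 9.85 and 10.33 in air OVA, 8.52, 9.79, 9.92 and 8.85 and 10.31, 10.33, 10.14 and 9.92 at DE 500, and 9.07, 9.27, 9.49 and 9.59 and 10.51, 10.18, 10.34 and 10.07 at DE 2000. At DE 2000 all OVA arrays lay above all saline arrays, at DE 500 they did so by a margin that vanishes at 2 decimals, and in air 1 OVA array lay among the saline arrays. It rose by 0.76 ± 0.13, a 1.69-fold rise (adjusted p = 7.92e-05).

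Psmd13 (Rpn9) read 9.86, 9.61, 10.12 and 9.46 in air saline and 9.10, 9.05, 8.96 and 8.48 in air OVA. At DE 500 it read 10.09, 8.79, 9.22 and 9.80 and 9.03, 8.83, 9.04 and 8.42, and at DE 2000 9.82, 9.84, 9.62 and 9.60 and 8.80, 9.42, 9.09 and 8.88. Every OVA array lay below every saline array in air and at DE 2000, and at DE 500 the saline arrays 2 and 3 lay within the OVA range or next to it. It fell by 0.73 ± 0.13, a 1.66-fold fall (adjusted p = 0.000137).

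Psmd7, the lid partner of the deubiquitinase Psmd14, rose by 0.74 ± 0.17 (adjusted p = 0.0014), from a saline median of 7.94 to an OVA median of 8.63. Array 4 of DE 2000 OVA stood at 7.49, inside the saline range. Psmd12 had saline minimum, median and maximum of 9.12, 9.45 and 9.61 and OVA values of 9.54, 9.80 and 9.96, and rose by 0.38 ± 0.07 (adjusted p = 0.000254). Psmd11 went from 11.88, 12.23 and 12.58 to 11.53, 11.77 and 12.46 and fell by 0.44 ± 0.09 (adjusted p = 0.000625), and Psmd3 fell by 0.38 ± 0.08 (adjusted p = 0.000668). Psmd6 and Psmd14 were not called (0.01 and -0.10). Of 8 lid subunits, 3 rose, 3 fell and 2 did not pass. Adjusted for the 3'/5' ratio, Psmd7 was 0.32 ± 0.18 (adjusted p = 0.275) and Psmd12 0.19 ± 0.07 (adjusted p = 0.0981). Psmd11 was -0.18 ± 0.09 (adjusted p = 0.196) and Psmd3 -0.22 ± 0.09 (adjusted p = 0.123) in that model. Of the lid only Psmd8 was still called on the brightest probe sets. A less bright Psmd11 probe set (mean log2 10.27) was called in the same model, at -0.34 ± 0.08 (adjusted p = 0.00411).

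Assembly chaperones and activators were called in both directions, and the inhibitor was not called. Of the base chaperones Psmd9 rose by 0.27 ± 0.11 (adjusted p = 0.0478), and Psmd5 and Psmd10 had 0.11 and -0.11. Of the core chaperones Psmg3 fell by 0.52 ± 0.13 and Psmg2 by 0.26 ± 0.10 (adjusted p = 0.00273 and 0.0391), and Psmg1 and Psmg4 had 0.05 and -0.10. Psme3 rose by 0.59 ± 0.12 (adjusted p = 0.000533) and its OVA arrays lay above all saline arrays in air and at DE 500, while the groups overlapped at DE 2000. Psme4, the PA200 activator, fell by 0.34 ± 0.09 (adjusted p = 0.00533), and the inhibitor Psmf1 had 0.23 ± 0.12 (adjusted p = 0.111). Psmd9 lost its call when any 1 of 15 of the 24 arrays was left out, and Psmg2 for 11. With the 3'/5' ratio in the model none of the 5 passed on its brightest probe set. Psmd9 was 0.25 ± 0.15, Psmg3 -0.13 ± 0.13, Psmg2 -0.33 ± 0.13, Psme3 0.43 ± 0.16 and Psme4 -0.28 ± 0.12. Their adjusted p were 0.296, 0.537, 0.0979, 0.0663 and 0.134.

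**Figure D4:**
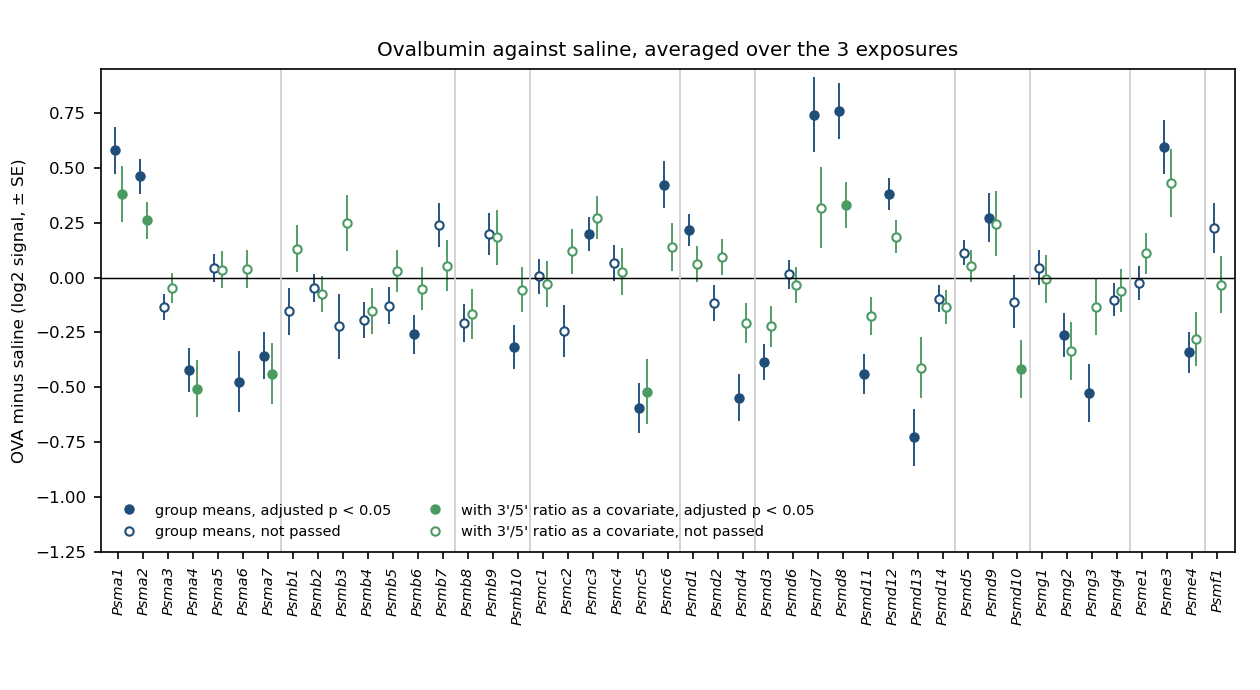
Difference between OVA and saline averaged over the 3 exposures (log2 signal, points, with SE bars) for the 45 tested members in class order, from group means alone (blue) and with each array's mean 3'/5' ratio as a covariate (green); filled points passed an adjusted p of 0.05. The filled points number 23 without and 7 with the covariate, and most differences lie nearer 0 with it.

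The OVA differences changed when RNA evenness was put in the model. Its slope there rests on the spread of the mean 3'/5' ratio within groups. That spread was largest in DE 500 saline (SD 2.24) and DE 2000 OVA (SD 1.01), and 0.07 to 0.83 in the other groups. The adjusted values therefore depend largely on the few arrays that stood apart in that ratio. With the mean 3'/5' ratio of each array in the model, 7 of 45 members were called in the average (background 14.1%), and 6 of these were among the 23: Psma1, Psma2 and Psmd8, which rose, and Psma4, Psma7 and Psmc5, which fell. The remaining one was Psmd10, with -0.42 ± 0.13 (adjusted p = 0.0351). The sign of 22 of the 23 was kept, with the brightest Psma6 probe set the exception (0.04 ± 0.09). Less bright Psma6 probe sets stayed below 0, at -0.22 ± 0.08 (adjusted p = 0.0671) and -0.51 ± 0.23 (adjusted p = 0.141). Psmd8 went from 0.76 to 0.33 ± 0.10 and Psmd13 from -0.73 to -0.41 ± 0.14 (adjusted p = 0.0517). The median absolute difference over the members went from 0.24 to 0.14, and over all probe sets from 0.25 to 0.16.

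With the B1 signal as the covariate 2 members were called (background 4.1%) and 15 of the 23 kept their sign, and with both covariates 1 was called, Psmc5 (background 1.69%). In air and at DE 500 each covariate left 0 members called (backgrounds between 0.206% and 1.77%). At DE 2000 it was 4 with the 3'/5' ratio (Psma4, Psmc5, Psmd8 and Psme4; background 15.7%), 5 with B1 (background 9.27%) and 0 with both (background 0.28%).

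DE 500 saline holds arrays of both kinds, since arrays 2 and 3 had ratios in or near the OVA range. On those arrays Psmd8 read 9.79 and 9.92, Psmd13 8.79 and 9.22, and Psmd4 10.77 and 10.58. On arrays 1 and 4 the same genes read 8.52 and 8.85, 10.09 and 9.80, and 11.66 and 11.50. These genes were picked after their values were seen. Over the 23 members called in the average, arrays 2 and 3 both lay within the DE 500 OVA range for 7, Psmd4 among them. For 6, with Psmd13, 1 of these arrays lay within it. Neither did for 10, with Psma1, Psma7, Psmd8 and Psme3 among them. Arrays 1 and 4 both lay within it for 2 members, 1 of them did for 2 and neither did for 19. Leaving out arrays 1 and 4 of DE 500 saline and array 4 of DE 2000 OVA gave 0 members called for OVA at DE 500 (background 0.656%), 15 in air (29.9%), 15 at DE 2000 (32.9%) and 20 in the average (41.4%). The same step called 6 members lower at DE 500 than in air in saline mice (Psma6, Psmb1, Psmb10, Psmd2, Psmd4 and Psmd13, from -0.47 for Psmd2 to -0.76 for Psmd13), beside 9.79% of all probe sets, where the 2 remaining DE 500 arrays have lower ratios than the air saline arrays. This step was chosen after the data were seen.

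**Figure D5:**
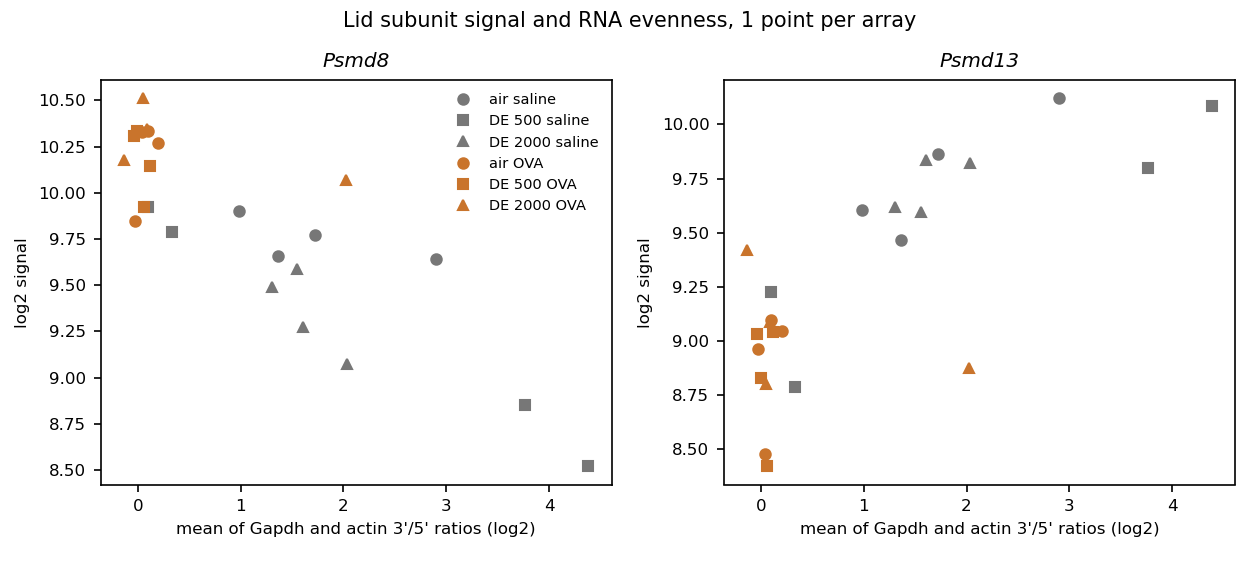
Log2 signal of the lid subunits Psmd8 and Psmd13 (vertical axes) against each array's mean log2 3'/5' ratio of Gapdh and actin (horizontal axes), 1 point per array, grey for saline and orange for OVA, with shapes for the exposures. The DE 500 saline arrays at 4.38 and 3.77 have the lowest Psmd8 values, 8.52 and 8.85, and array 4 of DE 2000 OVA at 2.02 keeps a Psmd13 value of 8.88, among the OVA arrays.

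Different probe sets of a gene did not always give the same OVA difference. Of 18 members with several tested probe sets, 9 had opposite signs among them in the averaged comparison, and the median range between probe sets was 0.24. Called probe sets of opposite sign occurred in Psmg2 (-0.26 against 0.91) and Psmd9 (0.27 against -0.46). The 3 probe sets of Psme4 gave -0.34, 0.04 and 0.42, and with the 3'/5' covariate -0.28, -0.29 and -0.19. A less bright Psme3 probe set gave 0.63 without and -0.16 with the covariate, where the brightest gave 0.59 and 0.43. With that covariate, less bright probe sets were called for Psma5 (0.52), Psmd4 (-0.56), Psmd9 (-0.64) and Psmd11 (-0.34), whose brightest ones were not. The values of Psma6, Psmc2, Psmd11 and Psme4 come from probe sets of types that the array design marks as able to bind related or shared sequences. The calls for genes with 1 tested probe set have no such check. Of the 46 members 25 have 1 probe set in all, and some others, Psma1 and Psmd7 among them, have 1 that passed the filter.

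Other genes of the ubiquitin pathway were also called in both directions. Of 27 genes listed, 16 had a probe set of their own and all were tested. At DE 2000, averaged over the arms, 0 of 16 were called (limma, 1 at an unadjusted p below 0.05, Rad23b at -0.29). With OVA 8 of 16 were called in the average, 3 higher and 5 lower, with a median of 0.06, beside 46.3% of all probe sets called in that comparison. Vcp, the segregase that pulls ubiquitylated proteins out of complexes, fell by 0.59 ± 0.10 (adjusted p = 9.54e-05). Ubqln4, a shuttle for ubiquitylated proteins, fell by 0.45 ± 0.10 (adjusted p = 0.00122). Nfe2l1, the transcription factor that restores proteasome gene expression when proteasomes fail, fell by 0.34 ± 0.08 (adjusted p = 0.00106). Rad23b, another shuttle, rose by 0.46 ± 0.11 (adjusted p = 0.00209). With the 3'/5' covariate these 4 were -0.24, -0.27, -0.17 and 0.09, and Vcp alone of them passed (adjusted p = 0.0324).

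Genes of class I presentation and interferon response work downstream of the immunoproteasome or control it. Of 13 listed, 11 were tested. At DE 2000 averaged over the arms 0 of 11 were called (limma, 1 at an unadjusted p below 0.05). With OVA 6 of 11 were called in the average, 2 higher and 4 lower, with a median of -0.05, beside the same 46.3% of all probe sets. B2m, the class I light chain, rose by 0.94 ± 0.13 (adjusted p = 8.46e-06). Tap1, a subunit of the peptide transporter and a neighbour of Psmb9 in the class II region, fell by 0.39 ± 0.10 (adjusted p = 0.00265), and Calr, a chaperone of peptide loading, by 0.28 ± 0.08 (adjusted p = 0.00978). H2-K1, a class I heavy chain with close relatives that its probes may also bind, fell by 0.20 (adjusted p = 0.0103). With the 3'/5' covariate B2m was 0.52 and Tap1 -0.39, both still called (adjusted p = 0.0015 and 0.0478), and Calr was -0.06 and H2-K1 -0.15, which were not.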

How the data were processed

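The authors deposited 1 linear signal intensity per probe set and array. It was made with MAS5, per the submitters' processing notes, with a version not given in the sources used here. Each array's trimmed mean (without the lowest and highest 2%) lay between 500.1 and 500.2, so the deposited values had been scaled to a common level. For arrays, their number limits the precision. The labels' protocols describe 2 ug of total RNA per array, prepared from frozen lung.

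Intensities were turned to log2 with no pseudocount. Of 22690 probe sets, 64 controls were left out, and 13575 with a mean log2 above the 40th percentile (7.11) were tested. A model of 6 group means was fitted with limma 3.58.1 (R 4.3.3; lmFit and eBayes with trend), and p-values were adjusted by Benjamini-Hochberg over all probe sets tested. Partner subunits and RNA quality were compared by exact two-sided permutation within exposures or arms. Promoters came from the RefSeq table of GRCm38.p6. The script was tested on simulated data. Named members were the catalytic subunits and Psme1, the called members (at most 10 in each direction), the 5 with the smallest p where fewer than 5 were called, and up to 4 genes of each further list. Uncalled members of each class are named for completeness. The members and lists were chosen with earlier results of these data known. The alternatives were the scaling, pseudocount, filter, groups in the fit, variance trend, array weights, replicate block, covariates for RNA evenness, second probe set and each array left out.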

Additional observations from a re-analysis of the deposited data

Results flagged for a closer look

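Single arrays that stood apart from the other 3 of their group were looked for in 17 members, which gave 102 sets of 4 arrays and 7 such members' arrays, by Dixon's test at its usual critical value. Chance alone gives this for about 5% of sets. In air saline, array 1 had a Psmb9 value of 9.22 (the others 9.71 to 9.79), and array 3 had 8.78 for Psma1 (9.54 to 9.62) and 9.12 for Psmd12 (9.50 to 9.55). In air OVA, array 1 had 10.37 for Psmc5 (9.83 to 9.89) and 11.22 for Psma4 (10.74 to 10.82), and array 3 had 9.85 for Psmd8 (10.27 to 10.33). In DE 2000 OVA, array 4 had 9.40 for Psmc5 (10.03 to 10.11). That array also stood apart in its log2 Gapdh ratio of 2.09 (-0.49 to -0.21), its actin ratio of 1.95 (0.23 to 0.44) and its B1 signal of 12.43 (10.85 to 11.06).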

How the results depend on the processing

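The counts of members called for exhaust and for its interaction with OVA were 0 under every alternative run, with 2 exceptions: 5 for DE 2000 in OVA mice with B1 as a covariate, and 6 for DE 500 in saline mice without the 3 arrays apart in 3'/5' ratio. For OVA in air (9 called), the count was 5 without a filter, 14 with only the compared groups, 15 with array weights, 0 with either covariate or both, 15 without the 3 arrays and 2 with second probe sets. For OVA at DE 500 (6 called) it was 3 without a filter, 0 with only the compared groups, 0 with either covariate or both, 0 without the 3 arrays and 2 with second probe sets. For OVA at DE 2000 (8 called) it was 13 with array weights, 4 with the 3'/5' ratio, 5 with B1, 0 with both, 15 without the 3 arrays and 4 with second probe sets. For the average (23 called) it was 7 with the 3'/5' ratio, 2 with B1, 1 with both and 8 with second probe sets. These counts do not describe the members alone, since the share of all probe sets called moved with the setting too. In air it was 14.8% in the main fit, 29.9% without the 3 arrays and 1.77% with the 3'/5' ratio. Shares are given above for the covariates and for the step without the 3 arrays. They are not given for the other settings or for single arrays left out. Fewer genes have a second probe set. The other causes were not tested. Leaving out the 3 arrays and the partner shifts with a covariate were chosen after the data were seen.

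Leaving out 1 array at a time gave 1 to 12 calls in air (1 without air saline array 3), 0 to 14 at DE 500 (0 without DE 500 saline array 1 or 4, 14 without array 2), 4 to 13 at DE 2000 (4 without DE 2000 OVA array 3 or DE 2000 saline array 4, 13 without DE 2000 OVA array 4) and 20 to 26 in the average, and 0 to 0 in all other comparisons. The OVA shift of Psmb10 against Psmb7 was -0.11 with the 3'/5' covariate. The DE 2000 shift of Psmb8 against Psmb5 was 0.030 without the 3 arrays and ran from -0.059 to 0.030 with 1 array left out.

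Signs of averaged OVA differences that turned were Psma6 (0.040) with the 3'/5' covariate; with B1, Psma6 (0.39), Psmb10 (0.063), Psmb6 (0.019), Psmc6 (-0.093), Psmd1 (-0.038), Psmd11 (0.064), Psmd7 (-0.047) and Psmg3 (0.12); with both, Psma6 (0.080), Psmc6 (-0.012) and Psmd11 (0.041); and with second probe sets, Psmd9 (-0.46), Psme4 (0.043) and Psmg2 (0.91). At DE 2000 with B1, Psmd12 was -0.014 and Psmd4 0.011.

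With the replicate number as a block, 8, 5, 8 and 25 members were called for OVA in air, at DE 500, at DE 2000 and in the average, and 0 elsewhere. The share of all probe sets called in that model is not given, so these counts do not describe the members alone. Same-numbered arrays had a mean residual correlation of 0.03 (-0.43 to 0.59 over 60 pairs, 21 over 0.1). No general pairing by number was seen, but a mean near 0 cannot exclude a pairing of some arrays.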
